A study of Mus musculus with 8 samples.

Results

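The 17-beta-hydroxysteroid dehydrogenases were followed through p53-null mouse liver tumours and adenovirus-infected mouse livers on Affymetrix expression arrays. The 7 genes described were Hsd17b2, Hsd17b4, Hsd17b6, Hsd17b10, Hsd17b11, Hsd17b12 and Hsd17b13. They were taken as every probe set annotated to 1 gene symbol that was one of these names, which gave 14 probe sets on the tumour array and 12 on the adenovirus array. They were 7 of 12394 genes with such a probe set on both array types. The set was chosen by the tumour and adenovirus signals of these same arrays, Hsd17b6 in particular for its contrast with the other isoforms, so levels and differences of the 7 genes are given as a description without a test.

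Every animal was a p53-/- mouse on the C57BL/6J background. The tumour data held 3 hepatocellular carcinomas of HBs transgenic mice without the telomerase RNA gene (mTERC-) and 3 of HBs transgenic mice with it (mTERC+), all from mice aged 12 to 15 months and with 1 tumour per array. The adenovirus data held 1 array of livers infected with Ad TRF2DBDM, which encodes a dominant-negative TRF2 that lacks its basic and Myb domains and strips the protein from telomeres, and 1 array of livers infected with Ad GFP. Both viruses went in intravenously at 2e+10 PFU, livers were taken 48 hours later, and each array carried RNA pooled from 3 mice. Which promoters drive the HBs transgene and the viral inserts is not stated in the labels. The labels name the tissue as hepatocytes, whereas the design describes whole liver and whole tumours.

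The name of this family comes from the conversion of hydroxyl and keto groups at carbon 17 of androgens and oestrogens, but several members act mainly on other substrates. In liver, Hsd17b2 inactivates sex steroids and Hsd17b6 acts on hydroxyl groups of androgen metabolites, Hsd17b4 is a peroxisomal beta-oxidation enzyme, and Hsd17b10 is a mitochondrial enzyme of isoleucine breakdown. Hsd17b12 serves fatty acid elongation in the endoplasmic reticulum, and Hsd17b11 and Hsd17b13 sit on lipid droplets. In the RefSeq annotation Hsd17b13 and Hsd17b11 were adjacent protein-coding genes on chromosome 5, and Hsd17b6 lay beside Sdr9c7, another short-chain dehydrogenase gene, on chromosome 10.

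The 250 bases before the transcript start are shown for 3 of the genes, because Hsd17b6 varied most between arrays while Hsd17b11 and Hsd17b12 varied little among the tumours. Hsd17b13 varied as little, and its window, which held few CG, is given below by its counts only. The sequences are from RefSeq, build GRCm38.p6, all on the minus strand, at chr10:128007612-128007861 for Hsd17b6, chr5:104021797-104022046 for Hsd17b11 and chr2:94157910-94158159 for Hsd17b12. They run 5′ to 3′, and capitals mark each CG dinucleotide, which reads the same on both strands.
Hsd17b6: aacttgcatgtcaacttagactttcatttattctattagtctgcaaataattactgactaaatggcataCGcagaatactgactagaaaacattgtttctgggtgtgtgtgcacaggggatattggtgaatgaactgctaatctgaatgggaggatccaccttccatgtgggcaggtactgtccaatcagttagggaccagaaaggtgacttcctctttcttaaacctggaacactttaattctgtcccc
Hsd17b11: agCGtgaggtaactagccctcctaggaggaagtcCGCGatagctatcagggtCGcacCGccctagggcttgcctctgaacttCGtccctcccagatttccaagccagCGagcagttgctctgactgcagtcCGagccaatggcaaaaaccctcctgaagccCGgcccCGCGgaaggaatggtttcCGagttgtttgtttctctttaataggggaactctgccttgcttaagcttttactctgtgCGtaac
Hsd17b12: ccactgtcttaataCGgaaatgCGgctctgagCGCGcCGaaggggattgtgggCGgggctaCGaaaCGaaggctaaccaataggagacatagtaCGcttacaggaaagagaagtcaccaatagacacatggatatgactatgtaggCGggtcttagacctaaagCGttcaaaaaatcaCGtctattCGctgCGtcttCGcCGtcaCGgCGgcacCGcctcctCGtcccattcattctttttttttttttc
Among the 7 genes, 5 had such a window in the RefSeq table. The Hsd17b6 window held 1 CG, and 18.8% of the 32851 windows of all genes held as few. A second Hsd17b6 start had 0 CG in its window. The Hsd17b13 window had 3 CG, against 12 for Hsd17b10, 13 for Hsd17b11 and 20 for Hsd17b12, and the median window had 6. The letters CCAAT, searched on both strands as CCAAT or ATTGG, were present upstream of Hsd17b6, Hsd17b10, Hsd17b11 and Hsd17b12 but not of Hsd17b13, and in 33.8% of all windows. These matches are a description of the windows only.

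A signal here is the authors' MAS5 expression value of a probe set on a linear scale, a summary of its matched and mismatched probes. Levels were compared as log2 of the signal plus 32, and log2 differences and ratios are on that scale, which understates changes of dim genes. The median signal was 54.5 to 75.1 on the tumour arrays and 46.1 and 52.5 on the adenovirus arrays, and no detection calls were used. One array stood apart. For mTERC- tumour 2 the Gapdh control gave a 3'/5' signal ratio of 13.8, against 0.983 to 1.18 on the other tumour arrays. The 18S control gave 319 and 349 on mTERC- tumours 2 and 3 and at least 11009.8 on the rest. Of 10 listed hepatocyte markers, 8 were measured, and all were bright in every tumour, with a lowest signal of 586 and summed signals of 160446 to 233434 in mTERC- and 189330 to 241689 in mTERC+ tumours. Of the 6 listed markers of steroidogenic and adipose tissue 5 were measured. They summed to 856 to 2735 in mTERC- and 357 to 1120 in mTERC+ tumours. Most of each mTERC- sum was Fabp4, at 693.2, 2418.5 and 1267.7 in mTERC- tumours 1, 2 and 3. Its signal was 177.1 to 918.2 in mTERC+ tumours. Star and Cyp11b1 ran the other way, with means of 53.2 and 21.2 in mTERC- and 103.3 and 49.8 in mTERC+ tumours. Cyp11a1 and Adipoq ran as Fabp4 did, with means of 111.7 and 40.9 in mTERC- and 85.3 and 22.1 in mTERC+ tumours. The Cyp11b1 and Adipoq means lay below every tumour array median. Fewer cells of a type and less RNA per cell cannot be told apart in such bulk samples.

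Among the tumours, Hsd17b6 had by far the widest spread of the 7 genes, and that spread lay within the groups rather than between them. The mouse enzyme belongs to the retinol dehydrogenase-like branch of the short-chain dehydrogenases, and its human counterpart can oxidise androstanediol back to dihydrotestosterone. Its brighter probe set, 1449385_at, had signals of 1817, 35.5 and 152 in mTERC- tumours 1, 2 and 3, against 122, 137 and 514 in mTERC+ tumours 1, 2 and 3. The highest and the lowest tumour were both mTERC-, so the groups overlapped completely. The SD over the 6 tumours was 1.68 on the log2 scale, against 0.28 to 0.71 for the other 6 genes. The lowest signal, 35.5, was under its array's median of 75.1, so how far it lay below the others is uncertain. It averaged 668 ± 997 over the 3 mTERC- tumours and 258 ± 222 over the 3 mTERC+ tumours (SD), with a log2 difference of 0.23 (SE 0.87) in the limma fit. That difference was -1.12 without mTERC- tumour 1 and 1.27 without mTERC- tumour 2, the array with the high Gapdh ratio. The lowest Hsd17b6 signal of the tumours was on that array.

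**Figure D1:**
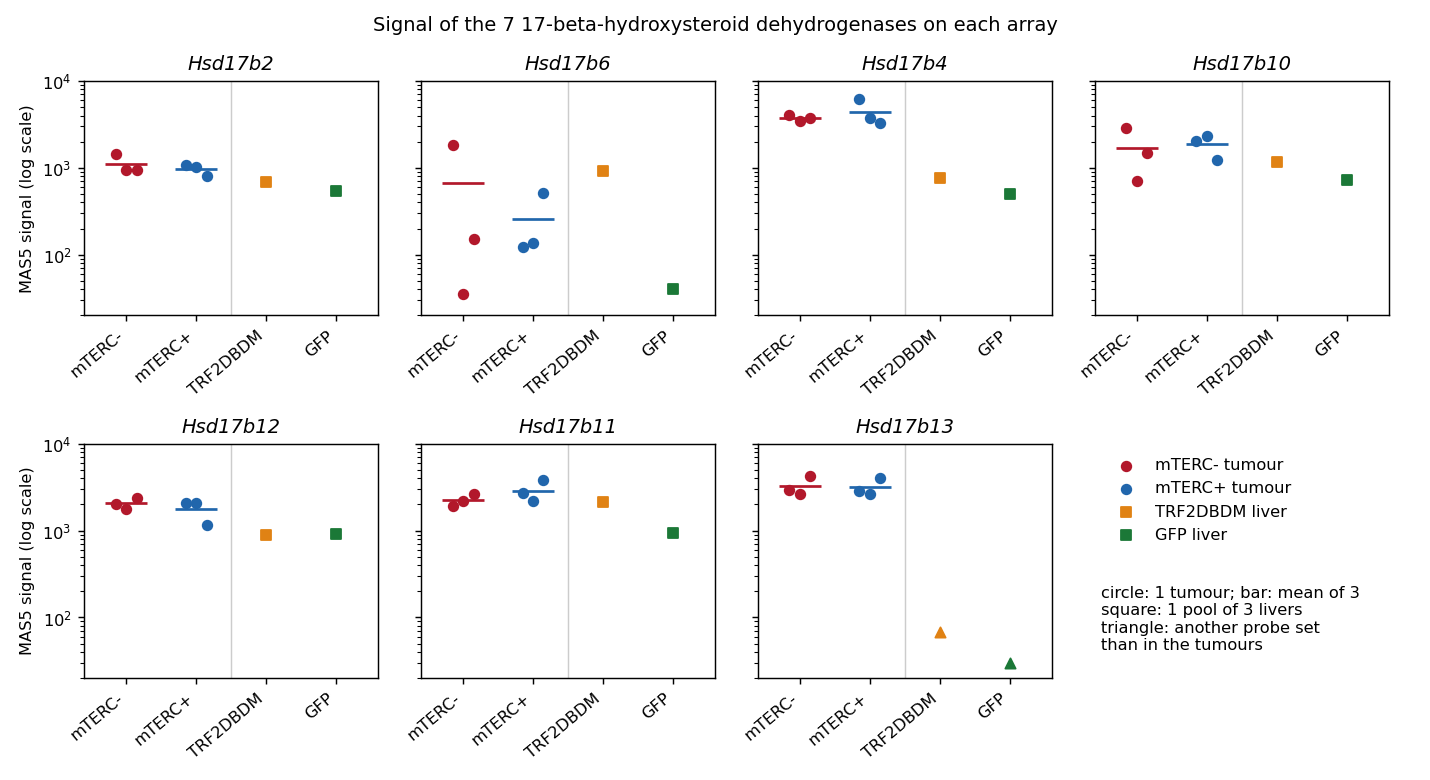
MAS5 signal of each dehydrogenase on a log axis, with a circle for each mTERC- or mTERC+ tumour, a bar at the mean of 3 tumours, and a square for each pooled TRF2DBDM or GFP liver (triangles for Hsd17b13, where the liver array lacks the probe set used in the tumours). Hsd17b6 runs between 35.5 and 1817 among the tumours and stands at 929 and 40.1 in the TRF2DBDM and GFP livers, while Hsd17b10 has the next widest tumour range, between 711 and 2857.

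The second Hsd17b6 probe set, 1449386_at, did not follow the first. It had signals of 38.6 and 234 in mTERC- tumours 1 and 2, with mTERC- tumour 3 between them, against 23.7, 68.1 and 66.4 in mTERC+ tumours 1, 2 and 3. It was thus brightest in mTERC- tumour 2, where the first probe set was dimmest, and below the array median in mTERC- tumour 1, where the first was brightest. The account of Hsd17b6 rests on the brighter probe set alone.

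The tumour with the highest Hsd17b6, mTERC- tumour 1, also had the highest Xist signal and the highest sum of neutrophil markers, but not an extreme level of Eif2s3y or macrophage markers. Xist, the RNA of the inactive X chromosome, had signals of 862, 104 and 38.4 in mTERC- tumours 1, 2 and 3, against 3.6 to 5.4 in mTERC+ tumours. Eif2s3y, a Y-linked gene, had 70.5, 142 and 52.8 in mTERC- tumours 1, 2 and 3, against 138.5 to 219.8 in mTERC+ tumours. Neutrophil markers, of which all 8 were measured, summed to 21979, 15146 and 9078 in mTERC- tumours 1, 2 and 3, against 398 to 3024 in mTERC+ tumours. S100a8 and S100a9 made up most of the mTERC- sums, at 2758.7 and 5523.2 in mTERC- tumour 3. In that tumour Ngp, Camp and Ltf, at 72.2, 50.2 and 5.4, lay within the range of the mTERC+ tumours. Elane, at 5.5, lay below that range there, and Mpo and Csf3r, at 71.8 and 591.1, above it. Of the 8 neutrophil markers, only S100a8, a calcium-binding protein abundant in neutrophils, passed in limma (log2 difference 3.75, SE 0.50, adjusted p = 0.0246), and it was the 1 gene that passed among all genes. That call was lost, with 0 genes passing, without mTERC- tumour 2, mTERC+ tumour 1 or mTERC+ tumour 3, and under 7 of the 11 other settings tried. All 10 macrophage markers were measured and summed to 14671, 9377 and 8374 in mTERC- tumours 1, 2 and 3, against 7417 to 49389 in mTERC+ tumours. The part of these in the Hsd17b6 level was not tested.

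Relative to the mean of the other 6 genes on the same array, Hsd17b6 was at 2.66, -1.63 and -0.60 in mTERC- tumours 1, 2 and 3, in log2 units with each gene centred on its mean over the tumours. The values were -0.96, -0.65 and 1.18 in mTERC+ tumours 1, 2 and 3. The difference between the groups was 0.29, at a mean of 0.14 ± 2.24 for mTERC- tumours and -0.14 ± 1.16 for mTERC+ tumours (SD over 3 tumours). A ratio within an array shows unequal change and not which gene moved.

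**Figure D2:**
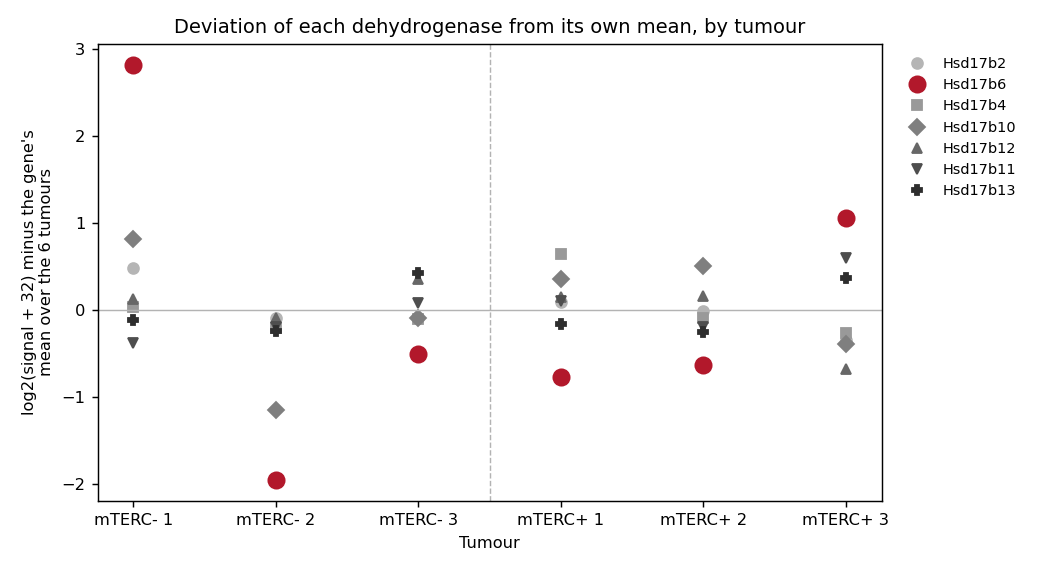
Level of each dehydrogenase in each tumour, as log2(signal + 32) minus the mean of that gene over the 6 tumours, with mTERC- tumours on the left and mTERC+ tumours on the right. Hsd17b6 (large red circles) runs from -1.96 to 2.82, and Hsd17b10 is the next widest, at -1.15 in mTERC- tumour 2.

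Hsd17b2, which oxidises oestradiol to oestrone and testosterone to androstenedione, was steady. Its signals were 1443, 953 and 951 in mTERC- tumours 1, 2 and 3, against 1089, 1014 and 797 in mTERC+ tumours. The highest tumour was mTERC- and the lowest mTERC+, with the others between. The log2 difference was 0.19 (SE 0.34). The difference was -0.01 without mTERC- tumour 1, and the SD over the 6 tumours was 0.28.

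Hsd17b4, the peroxisomal multifunctional enzyme that shortens very long and branched fatty acids and the bile acid side chain, differed little between the groups. Its signals were 4098, 3466 and 3708 in mTERC- tumours 1, 2 and 3, against 6265, 3772 and 3309.5 in mTERC+ tumours. One mTERC+ tumour lay above all others, and the rest were intermixed, with a log2 difference of -0.19 (SE 0.33), which was 0.08 without mTERC+ tumour 1. The dimmer probe set 1455777_x_at also had its highest value, 545.5, in mTERC+ tumour 1.

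Hsd17b10, which acts in isoleucine breakdown and is a subunit of mitochondrial RNase P, had the second widest spread. It had signals of 2857, 711 and 1504 in mTERC- tumours 1, 2 and 3, against 2064, 2303 and 1220 in mTERC+ tumours. Both extremes were again mTERC- tumours 1 and 2. The log2 difference was -0.30 (SE 0.45), and it was 0.20 without mTERC- tumour 2. On the dimmer probe set 1438391_x_at the signal in mTERC- tumour 2 was 283, within the 200.6 to 305 of the other mTERC- tumours, and the lowest tumour was mTERC+ tumour 3, at 79.2.

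Hsd17b12, the ketoacyl reductase of fatty acid elongation, was measured by a pair of bright probe sets that ran alike. With 1450011_at the signals were 2041, 1761 and 2404 in mTERC- tumours 1, 2 and 3, against 2084, 2102 and 1158 in mTERC+ tumours. With 1450010_at the lowest tumour was also mTERC+ tumour 3, at 1210.1, and the remaining tumours lay between 1701 and 2259.6. The log2 difference of the first was 0.25 (SE 0.34), and it was -0.03 without that low mTERC+ tumour.

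Of the lipid droplet pair, Hsd17b11 had signals of 1921, 2183 and 2652 in mTERC- tumours 1, 2 and 3, against 2691, 2171 and 3792 in mTERC+ tumours. Hsd17b13, whose loss-of-function variants in people are linked to milder liver disease, had 2902, 2669 and 4224 in mTERC- tumours 1, 2 and 3, against 2830.3, 2632 and 4050.3 in mTERC+ tumours. The third tumour listed in each group had the highest signal of its group for both genes. The log2 differences were -0.33 (SE 0.33) for Hsd17b11 and 0.04 (SE 0.33) for Hsd17b13. A weaker Hsd17b11 probe set, 1421011_at, ran the other way between the groups, at 221 to 315 in mTERC- and 159 to 257 in mTERC+ tumours. The dim Hsd17b13 probe set 1425589_at stayed at 46.9 to 65.0 in mTERC- tumours and reached 182 in mTERC+ tumour 3.

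All 7 genes passed the level filter in the tumours. No p is read for the 7, because they were chosen on this contrast, and limma served only for their differences and SEs. With the limma threshold of 0.05 on the Benjamini-Hochberg adjusted p, 0.00835% of all genes passed as higher and 0% as lower. The groups overlapped for all 7, and 0 of 7 were separated, against 10.1% of all genes. The median log2 difference of the 7 was 0.04, beside 0.02 over all genes. Of the 7, 4 had a higher mean in mTERC- tumours, against 51.4% of all genes. Without mTERC- tumour 2 the differences were 0.28 for Hsd17b2, -0.13 for Hsd17b4, -0.31 for Hsd17b11, 0.36 for Hsd17b12 and 0.17 for Hsd17b13. With all 6 tumours, each of the 7 differences was smaller than its SE.

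In the adenovirus livers Hsd17b6 had a far higher signal in the TRF2DBDM pool. There were no replicates, so the values describe these 2 pools. The brighter Hsd17b6 probe set gave 928.6 in the TRF2DBDM pool and 40.1 in the GFP pool, a log2 ratio of 3.74. The GFP signal was under that array's median of 46.1 and no detection calls were used, so the size of the ratio is uncertain, and the gene passed the level filter through the TRF2DBDM pool alone. With the mean of both probe sets the log2 ratio was 1.96. The TRF2DBDM value ranked at percentile 95.2 of its array, against percentile 46.7 for the GFP value. The second Hsd17b6 probe set was dim in both pools, at 39.5 in TRF2DBDM and 30.7 in GFP livers, a log2 ratio of 0.19.

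Hsd17b11 was the other gene past 2-fold, with 2115 in the TRF2DBDM pool and 932 in the GFP pool, a log2 ratio of 1.16. Its second probe set ran the same way, at 302 and 73.0 in TRF2DBDM and GFP livers, a log2 ratio of 1.67. Hsd17b10 had 1169 and 731 in the TRF2DBDM and GFP pools, a log2 ratio of 0.65, and 163 and 91.8 on its second probe set. Hsd17b4 had 763 in TRF2DBDM and 504.0 in GFP livers, a log2 ratio of 0.57, and its second probe set had 0.60. Hsd17b2 had 688 in TRF2DBDM and 547 in GFP livers, a log2 ratio of 0.32. Hsd17b12 was level between the pools, at 891 in TRF2DBDM and 906 in GFP livers, and its other probe set had a log2 ratio of -0.24. Hsd17b13 could be read only from its dim probe set, at 68.0 in TRF2DBDM and 30.2 in GFP livers, a log2 ratio of 0.69, which was 1.15 and so past 2-fold with a pseudocount of 1. The bright probe set is on the tumour array alone. The GFP signal of Hsd17b13 was under the GFP array's median of 46.1, so the gene passed the level filter through the TRF2DBDM pool alone.

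**Figure D3:**
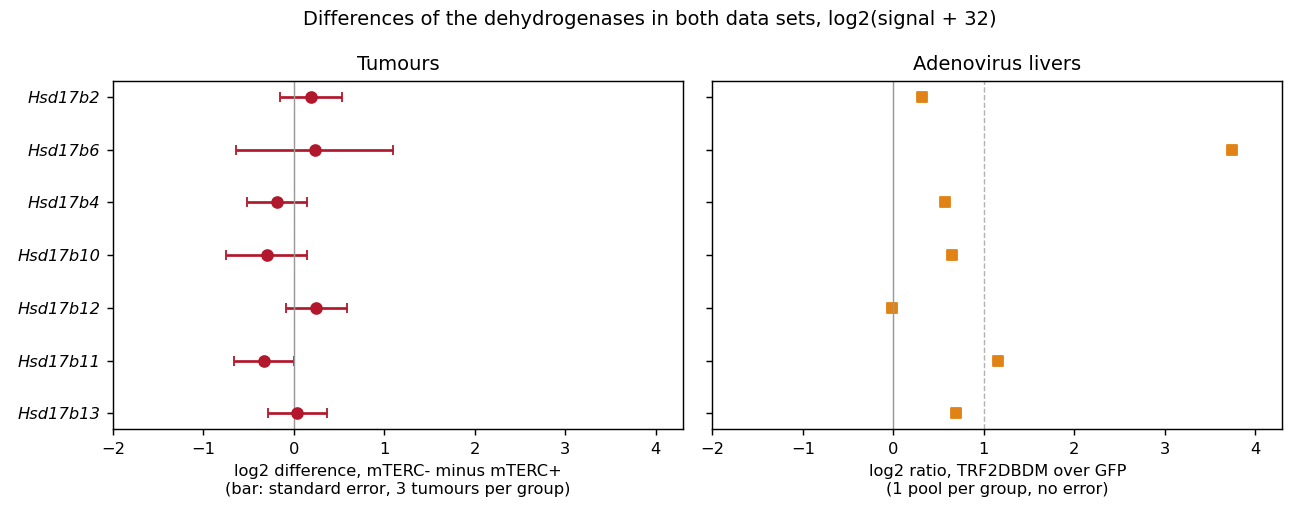
On the left, the log2 difference of each dehydrogenase between mTERC- and mTERC+ tumours with its standard error (3 tumours per group), and on the right its log2 ratio between the TRF2DBDM and GFP pools (1 array each, dashed line at 2-fold, a dim probe set for Hsd17b13). All tumour differences lie between -0.33 and 0.25, while in the livers Hsd17b6 stands at 3.74 and the other 6 genes between -0.02 and 1.16.

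In the TRF2DBDM pool 2 of the 7 genes had a signal at least 2-fold higher, beside 4.62% of all genes, and 0 were lower by that much, beside 2.9% of all genes. These shares belong to the contrast the genes were chosen on. A total of 6 had a higher signal in the TRF2DBDM pool, against 52.0% of all genes. Hsd17b6 and Hsd17b13 among them passed the level filter through that pool alone. The median log2 ratio of the other 6 was 0.61, beside 0.02 over all genes, and Hsd17b6 lay 3.18 above their mean. Markers moved in these pools too. All 8 measured hepatocyte markers were higher in the TRF2DBDM pool, with sums of 62985 in TRF2DBDM and 43996 in GFP livers. Macrophage markers summed to 2558 in TRF2DBDM and 1523 in GFP livers, but Cd68 among them had 319.6 in TRF2DBDM and 799 in GFP livers. Neutrophil markers summed to 1953 in TRF2DBDM and 2863 in GFP livers, with a median log2 ratio of -0.66. Ngp and Ltf among them ran the other way, with 284.9 and 158.0 in TRF2DBDM and 192.4 and 95.3 in GFP livers. The part of the hepatocyte, macrophage and neutrophil markers in the Hsd17b6 ratio was not tested.

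The same probe sets can be set side by side between the 2 data sets as percentiles of the probe sets common to both array types, with the caution that the tables were scaled separately and no test links them. Hsd17b4 ranked at percentiles 96.9 to 98.4 in the tumours and at 94.0 and 90.6 in the TRF2DBDM and GFP livers. Hsd17b2 ranged from 89.1 to 93.2 in the tumours and was at 93.4 and 91.4 in TRF2DBDM and GFP livers. Hsd17b12 was at 92.0 to 96.2 in tumours and at 95.0 and 94.9 in TRF2DBDM and GFP livers. For Hsd17b6 the tumours covered percentiles 27.0 to 94.4, a range that holds the GFP liver and ends just below the TRF2DBDM liver.

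The genes whose tumour pattern was most like Hsd17b6 were sought among 6391 genes with an SD of at least 0.5 on the log2 scale, by Pearson r over the same 6 tumours. The r values were picked as extremes and describe these tumours only, and all rest on the same 6 arrays. The 5 highest were Shmt1 (r = 0.991), a cytosolic folate enzyme of serine and glycine exchange, Shprh (0.987), a helicase-like ubiquitin ligase, Ifnar2 (0.963), a chain of the type I interferon receptor, the non-coding RNA Snhg16 (0.960) and Cdk5rap3 (0.955). Shmt1 had signals of 2265, 336 and 535 in mTERC- tumours 1, 2 and 3, against 594, 649.8 and 1053 in mTERC+ tumours. It shared with Hsd17b6 the highest, the second highest and the lowest tumour, the lowest being mTERC- tumour 2, the array with the high Gapdh ratio. Leaving out the tumours with the highest and lowest Hsd17b6, r was 0.940 for Shmt1 and 0.973 for Shprh over the remaining 4. The genes were picked on those 4 tumours too, so these values are no separate check. In the livers Shmt1 had 502 and 333 in the TRF2DBDM and GFP pools, a log2 ratio of 0.55. Cdk5rap3 ran the other way, with 237 in TRF2DBDM and 501 in GFP livers, a log2 ratio of -0.98. The 3 lowest were Tnfrsf11a (r = -0.988), a receptor of the TNF family, Zbtb7b (-0.987), a transcription factor, and Brap (-0.982). Brap had 274, 840.4 and 679 in mTERC- tumours 1, 2 and 3, against 754, 602 and 447 in mTERC+ tumours.

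The neighbours of the dehydrogenases in metabolism were read from 9 lists of genes. Of their 125 distinct genes tested in the tumours, 0 passed in limma over all genes (smallest adjusted p = 0.906, for Scd1 and Cideb, both named after their values were seen), 13 or 10.4% had an unadjusted p below 0.05, against 5.04% of all genes, and the groups did not overlap for 10.4%, against 10.1% of all genes. Of 104 genes compared in the livers, 22 or 21.2% had a signal at least 2-fold higher in the TRF2DBDM pool, against 4.62% of all genes, and 0 were lower by that much, against 2.9% of all genes. The lists were chosen with earlier results of these data known, and some genes, Akr1d1 among them, passed the level filter through the TRF2DBDM pool alone. Their median log2 ratio was 0.43, beside 0.67 for the 8 measured hepatocyte markers, of which 1 was at least 2-fold higher. The part of a rise common to hepatocyte genes was not tested. As background to the tumour counts of each list below, 51.4% of all genes had a higher mean in mTERC- tumours.

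In steroid metabolism 13 of 25 tested genes had a higher and 12 a lower mean in mTERC- tumours, with a median log2 difference of 0.04. Akr1c6, the mouse enzyme also known as the type 5 dehydrogenase, had 1896 ± 621 in mTERC- and 1580 ± 1479 in mTERC+ tumours (SD, 3 tumours a group). Akr1d1, which reduces the steroid ring on the way to bile acids, had 387 ± 318 in mTERC- and 699 ± 346 in mTERC+ tumours. Hsd11b1, the glucocorticoid-activating enzyme, had 11727 ± 2535 in mTERC- and 12747 ± 2133 in mTERC+ tumours. Of the other 17-beta enzymes, Hsd17b7, which serves cholesterol synthesis, had a log2 difference of 0.53 (SE 0.39), and H2-Ke6, also called Hsd17b8, of -0.02 (SE 0.35). For the livers, 7 of the list's 17 genes were past 2-fold on the TRF2DBDM side, against 4.62% of all genes, and the median log2 ratio was 0.46. Star and Akr1d1 among the 7 passed the level filter through the TRF2DBDM pool alone. Akr1c6 stood at 2429.5 in TRF2DBDM and 441 in GFP livers, Akr1d1 at 161 in TRF2DBDM and 36.8 in GFP livers, and Hsd11b1 at 741 in TRF2DBDM and 256 in GFP livers. Hsd17b7 had 99.6 in TRF2DBDM and 154.5 in GFP livers, on a different probe set from that used in the tumours. Cyp7b1, a hydroxylase of oxysterols and of the androgen metabolites that Hsd17b6 handles, had a tumour difference of 0.34 (SE 0.45) and a liver log2 ratio of 0.46. Hsd3b5 lay below the level filter in both data sets.

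Among the retinol dehydrogenase relatives of Hsd17b6, 10 of 13 tested genes had a lower mean in mTERC- tumours, with a median log2 difference of -0.34. Over all genes 51.4% had a higher mean there, and the median was 0.02. Rdh16, an enzyme that oxidises retinol, had signals of 13.9, 24.4 and 11.6 in mTERC- tumours 1, 2 and 3, against 92.5, 81.2 and 136 in mTERC+ tumours. The groups did not overlap, but the mTERC- values lie below the array medians, and the difference did not pass (log2 difference -1.46, SE 0.57, adjusted p = 0.953 in limma). Rdh7 had 2611 ± 1495 in mTERC- and 5537 ± 2011 in mTERC+ tumours (SD, 3 tumours a group), with its lowest signal, 886, in mTERC- tumour 2. In the livers Rdh7 had 3432 and 1380.1 in the TRF2DBDM and GFP pools, a log2 ratio of 1.29, and 2 of 11 genes of the list were past 2-fold on the TRF2DBDM side, against 4.62% of all genes. Rdh9, named after its values were seen, ran the other way in the tumours, with 1450.2, 1209 and 808 in mTERC- tumours 1, 2 and 3, against 399, 793 and 406 in mTERC+ tumours. Its groups did not overlap, and it did not pass (log2 difference 1.10, SE 0.38, adjusted p = 0.934 in limma). Rdh11, a retinal reductase, had a tumour difference of -0.79 (SE 0.47) and a liver log2 ratio of -0.31.

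For the peroxisomal partners of Hsd17b4, 12 of 19 tested genes had a lower mean in mTERC- tumours, with a median log2 difference of -0.42. Over all genes 51.4% had a higher mean there, and the median was 0.02. Acaa1b, the thiolase that completes each peroxisomal cycle, had 6584, 6567 and 5340.2 in mTERC- tumours 1, 2 and 3, against 10424, 6921 and 7741 in mTERC+ tumours. The groups were separate, by a small gap, and the log2 difference was -0.42 (SE 0.31, adjusted p = 0.953 in limma). Scp2, a sterol carrier with thiolase activity, had a log2 difference of -0.34 (SE 0.30), and Ehhadh, the other bifunctional enzyme of the peroxisome, of -0.53 (SE 0.44). In the livers 4 of 17 genes were at least 2-fold higher in the TRF2DBDM pool, against 4.62% of all genes, among them Acaa1b, at 2385 in TRF2DBDM and 965 in GFP livers, and Scp2, at 3179.6 in TRF2DBDM and 1453 in GFP livers.

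The list for Hsd17b10, isoleucine breakdown with mitochondrial RNase P, was balanced in the tumours, with 10 of 21 genes higher and 11 lower in mTERC- and a median log2 difference of -0.06. Acat1, the thiolase that follows Hsd17b10 in isoleucine breakdown, had 1569 ± 716 in mTERC- and 1375 ± 271 in mTERC+ tumours (SD, 3 tumours a group). Like Hsd17b10 it was lowest in mTERC- tumour 2, at 819.5, whereas Hadh, a mitochondrial fatty acid enzyme, was highest there, at 15124. In the livers 15 of 17 genes were higher in the TRF2DBDM pool, against 52.0% of all genes, 3 of them at least 2-fold, against 4.62%, and Acat1 had a log2 ratio of 0.86. Acadsb, which acts earlier in isoleucine breakdown, had a tumour difference of 0.24 (SE 0.35) and a liver log2 ratio of 0.31. Acadsb, Dld and Aldh6a1, with GFP signals of 39.6, 17.9 and 27.9, passed the level filter through the TRF2DBDM pool alone.

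Partners of Hsd17b12 in fatty acid elongation split into 5 higher and 8 lower in mTERC- tumours, with a median log2 difference of -0.05. Elovl1 and Elovl5, which open the elongation cycle, both had a log2 difference of -0.05 (SE 0.32 and 0.37), Hacd3, which follows Hsd17b12 in the cycle, had 0.17 (SE 0.32), and Tecr, which ends it, had -0.71 (SE 0.58). Tecr had 387 in mTERC- tumour 2 and at least 1678 in the other 5 tumours. In the livers 10 of 13 genes were higher in the TRF2DBDM pool, against 52.0% of all genes, and the median log2 ratio was 0.58, while Hsd17b12 itself had -0.02. Elovl6 among the 10, at 81.3 in TRF2DBDM and 40.6 in GFP livers, passed the level filter through the TRF2DBDM pool alone.

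The lipid droplet list, with which Hsd17b11 and Hsd17b13 belong, had 9 of 19 tested genes higher and 10 lower in mTERC- tumours and a median log2 difference of -0.05. Plin2, the main coat protein of liver droplets, had 6079 ± 1799 in mTERC- and 7063 ± 1446 in mTERC+ tumours (SD, 3 tumours a group), and Pnpla2, the first lipase of stored fat, had 405 ± 3.15 in mTERC- and 372 ± 57.3 in mTERC+ tumours. Cidec, a droplet fusion protein, had 42.0, 21.8 and 79.1 in mTERC- tumours 1, 2 and 3, against 126, 197 and 54.0 in mTERC+ tumours. Plin5, a coat protein that links droplets to mitochondria, had a log2 difference of 0.69 (SE 0.50). The largest differences of the list, named after their values were seen, belonged to Cideb and Fitm1, and neither passed. Cideb, a lipoprotein and droplet protein, had 3063.5, 999 and 1761 in mTERC- tumours 1, 2 and 3, against 6041, 3811 and 4069.5 in mTERC+ tumours, with separate groups and a log2 difference of -1.35 (SE 0.40). Fitm1, which helps droplets to form, had a log2 difference of -1.69 (SE 0.61) and overlapping groups. In the livers 0 of 18 genes of this list were 2-fold apart, against 4.62% of all genes higher and 2.9% lower by that much. The median log2 ratio of the list was 0.08. Plin2 had 7062 in TRF2DBDM and 7094 in GFP livers, while Hsd17b11 was past 2-fold.

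**Figure D4:**
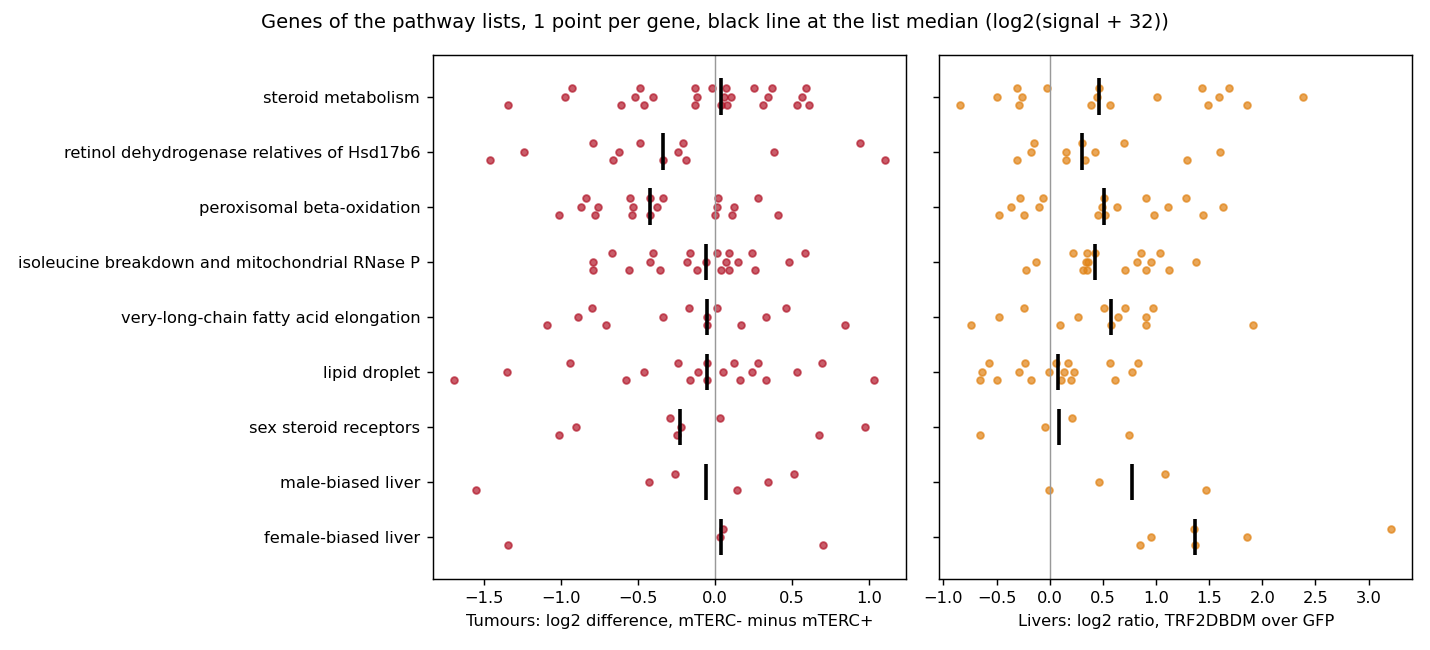
Genes of the 9 pathway lists that passed the level filter, 1 point per gene, with the log2 difference between mTERC- and mTERC+ tumours on the left and the log2 ratio between the TRF2DBDM and GFP pools on the right, and a black line at each list's median. Tumour medians lie between -0.42 and 0.04, while liver medians run from 0.08 for the lipid droplet list to 1.37 for female-biased genes. That last list has 6 genes in the livers, some of which passed the level filter through the TRF2DBDM pool alone.

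Of the sex steroid receptors and other nuclear receptors 3 of 8 had a higher and 5 a lower mean in mTERC- tumours. Esr1, the receptor for oestradiol, had 266, 260.5 and 148 in mTERC- tumours 1, 2 and 3, against 253, 203 and 395.5 in mTERC+ tumours. In the livers Esr1 was read from a different probe set, at 5.7 in TRF2DBDM and 10.5 in GFP livers. That lay below the level filter, and the change of probe set leaves its liver and tumour levels not comparable. In the tumours the 6 male-biased liver genes tested had a median of -0.06, and the 4 female-biased ones had 0.04. On the TRF2DBDM side of the livers, 2 of 4 male-biased genes were past 2-fold (median log2 ratio 0.77), as were 4 of 6 female-biased genes (median 1.37), against 4.62% of all genes. Among the female-biased genes, Hao2 (70.4 in TRF2DBDM and 7.5 in GFP livers) and Cyp3a44 (53.2 and 12.0) passed the level filter through the TRF2DBDM pool alone. The filter left out dim male-biased genes, among them Slco1a1 and Hsd3b5, lower in the TRF2DBDM pool, and Cyp4a12a and Elovl3, higher there.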

How the data were processed

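Per the labels' protocols, the arrays were hybridised with biotinylated cRNA prepared out of 6 microg RNA. The deposited values are the authors' MAS5 signal intensity of each probe set, per the submitters' processing notes. Neither the MAS5 version nor its scaling target is stated there. Without the lowest and highest 2% of values the mean was 150.0 on tumour arrays and 150.1 on adenovirus arrays, and this scaling was kept.

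Use was limited to probe sets that the platform annotation ties to 1 symbol (34958 of 45101 on the tumour array, 20393 of 22690 on the adenovirus array), and the one highest in mean level stood for its gene. Tumour genes were tested where that mean reached the median of all probe sets (11980 of 18194). The fit was limma 3.58.1 (R 4.3.3) on log2(signal + 32), using a trended prior variance, two-sided tests and Benjamini-Hochberg adjustment over all tested genes. Tumours came from separate mice, and their number limits the precision. Adenovirus ratios have no replicates, and they were counted over 7789 genes whose signal reached the array median in either pool.

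The 7 genes and the lists were chosen with earlier results of these data known. Pathway genes were named from a written list whatever their values, and genes like Hsd17b6 by their highest and lowest r. Some listed genes were not analysed here. The limma code was tested on simulated data.

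The alternatives were quantile normalization, median centring, pseudocounts of 1 and 64, averaging all probe sets of a gene, array weights, an untrended variance, no filter or one at percentile 75, a block for the 18S control, the Y-linked level as a covariate, and leaving out each tumour.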

Additional observations from a re-analysis of the deposited data

How the results depend on the processing

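No paired analysis was possible because the tumours carry no replicate numbers shared between the groups in the labels. Precision was limited by 3 tumours per group, and in the livers by 1 pool per group. With a block for the 18S control, in which mTERC- tumour 1 alone carries the comparison with mTERC+ tumours, the log2 difference was 2.93 for Hsd17b6, 0.57 for Hsd17b2 and 0.66 for Hsd17b10. With the mean of all probe sets of a gene, the tumour difference of Hsd17b11 was 0.12. That mean took in a dim Hsd17b11 probe set, 1443059_at, with tumour signals of 4.6 to 75.3. Averaged the same way, the liver log2 ratio of Hsd17b6 was 1.96. With a pseudocount of 1 that ratio was 4.50. Leaving out 1 tumour at a time, the Hsd17b6 difference lay between -1.12 and 1.27, its difference relative to the other 6 genes between -0.97 and 1.18, and the Hsd17b10 difference between -0.78 and 0.20. The number of dehydrogenases with separate tumour groups lay between 0 and 1, the 1 being Hsd17b11 without mTERC+ tumour 2. The number of pathway genes past the threshold was 0 under every alternative run. With a pseudocount of 1, 3 of the 7 genes were at least 2-fold higher in the TRF2DBDM pool in place of 2, as Hsd17b13 had a log2 ratio of 1.15. The other tumour differences moved by less than the SD within groups, and the other liver ratios by less than 1.5-fold. Leaving out 1 tumour turned the sign for Hsd17b2 (-0.01 to 0.28), Hsd17b4 (-0.37 to 0.08), Hsd17b12 (-0.03 to 0.39) and Hsd17b13 (-0.16 to 0.23), and not for Hsd17b11 (-0.51 to -0.11).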
